A study of Mus musculus with 30 samples.

Results

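The comparison described here is the difference between 2 responses to bone morphogenetic protein 4 (BMP4): that of mesenchyme from the distal hindlimb bud and that of mesenchyme from the distal forelimb bud. It uses 16 of the 30 arrays of the study. The cells were grown as primary cultures at high density, and the embryos were of the CD-1 strain at age E10.5. The labels call the distal hindlimb cells early and the distal forelimb cells intermediate, and the 8 groups used are both populations, in plain medium (control) or in medium with 20 ng/ml BMP4 from the start of culture, at day 1 and at day 2, with 2 arrays labelled as biological replicates in each. That gives 4 arrays per population and treatment. RNA was collected from cultures that came from about 280 embryos. The labels do not say whether that number is per array or in all, or how many embryos were pooled for an array. Limb type, the developmental age of the limb bud and the portion dissected all differ between the populations and cannot be told apart. The proximal forelimb cells, which the labels call late, enter only as side values. No BMP inhibitor or other dose was used in these groups, so the response means BMP4 minus control.

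BMP ligands bind paired type I and type II receptor kinases, which phosphorylate SMAD proteins that then enter the nucleus with SMAD4 and switch target genes on or off. Among the targets are inhibitors of the pathway itself, such as the secreted antagonist noggin and the inhibitory SMADs. In the limb bud the pathway is known for setting the anterior and posterior borders, for cell death between the digits and for driving condensed mesenchyme into cartilage. What a cell does on contact with BMP depends on the transcription factors it already holds, and the hindlimb and forelimb fields are set apart by Pitx1 and Tbx4 on one side and Tbx5 on the other.

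The values are log2(signal + 16) from the deposited array intensities, called the log2 level below. The response is BMP4 minus control averaged over both days, and the response difference is the response in early minus that in intermediate cultures. A gene is said to have passed the test, or to have risen or fallen, when its p-value from limma, adjusted by the Benjamini-Hochberg method over 14658 genes, was under 0.05. Because the replicate numbers of the labels may pair arrays within a day, the same fit with the number as a block is given where it changes a call.

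The limb identity genes matched the labels. Pitx1, the hindlimb homeobox factor, lay between 9.37 and 9.95 on the early arrays and between 4.75 and 6.28 on the intermediate ones. Tbx5, the forelimb T-box factor, lay between 8.52 and 9.00 on 7 of the 8 intermediate arrays, at 7.96 on the remaining one, and at no more than 5.85 on the early ones. All 10 limb mesenchyme markers, Prrx1 and Twist1 among them, were above the 40th percentile of the array on all 16 arrays. The median signal per array ran from 34.6 to 46.4, and replicate arrays correlated at 0.969 to 0.981. One array stood apart from its replicate in its response. On the second intermediate BMP4 array of day 1 the median rise over 22 BMP targets was 0.776, against 0.387 on the first, and over 16 T-box and GATA factors it was 0.918 against 0.181. For the BMP targets it was thus close to the early BMP4 arrays of day 1, at 0.742 and 0.721. For the T-box and GATA factors those were higher, at 1.35 and 1.44. At day 2 the BMP target medians were 0.0122 and 0.111 on the intermediate BMP4 arrays and 0.44 and 0.324 on the early ones.

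The response difference passed the test for 16 of 14658 genes (0.109%), 9 of them higher in early cultures (0.0614% of all genes) and 7 lower (0.0478%). The higher ones were Gata6, St8sia4, Gpr22, Ralyl, Slitrk5, Zfp804a, Prdm6, Dcn and Adam23. The lower ones were Sparcl1, Trim47, Chst15, Tcf7l2, Twist2, Adgra3 and Gmds. With the replicate block 93 genes passed (0.634%), 53 higher (0.362%) and 40 lower (0.273%), and the 16 were all among them. With array medians set equal 21 passed, 9 higher and 12 lower. Without the second intermediate BMP4 array of day 1, 68 genes passed, again with all 16 among them. An unadjusted p under 0.05 was found for 1260 genes, where 733 would be expected with no difference anywhere.

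RefSeq promoter sequences (assembly GRCm38.p6) were found for 11 of these 16 genes, in 13 entries. None was found for Gata6, Ralyl, Dcn and Prdm6, which were higher in early cultures, or for Sparcl1, which was lower. More of the higher genes than of the lower ones were thus left unsearched. The 250 bases before the annotated start were searched on both strands. The main motif was GGCGCC, a GC-rich element known to bind BMP-activated SMADs. GGCGCC was found for 3 of the 11 genes, Adgra3, Gmds and Tcf7l2, all of them lower in early cultures. It was found in 9.59% of all 32851 promoter entries. A GATA site, spelled AGATAA, was found for 1 gene, against 9.99% of all promoters. An E-box, spelled CAGATG, was found for 2 genes, against 14.4%. The letters TATAAA, as in a TATA box, were found for 2 genes, against 12.4%. They lay 133 bases before the start of Gpr22. For Tcf7l2 they lay on the opposite strand, 242 bases before the start of an entry other than the one printed below. The AGATAA site was in that other Tcf7l2 entry too, 187 bases before its start. None of these motifs overlaps another in the sequences printed. The 3 promoters with GGCGCC are printed because they belong to genes that moved the same way. Capitals mark that element, and each sequence reads toward the start of its gene.
Adgra3, chr5:50058997-50059246, minus strand: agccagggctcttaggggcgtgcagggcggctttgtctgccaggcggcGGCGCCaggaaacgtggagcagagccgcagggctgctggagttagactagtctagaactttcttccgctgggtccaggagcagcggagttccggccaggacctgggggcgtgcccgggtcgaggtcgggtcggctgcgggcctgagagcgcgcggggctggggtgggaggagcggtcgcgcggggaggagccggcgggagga
Gmds, chr13:32338545-32338794, minus strand: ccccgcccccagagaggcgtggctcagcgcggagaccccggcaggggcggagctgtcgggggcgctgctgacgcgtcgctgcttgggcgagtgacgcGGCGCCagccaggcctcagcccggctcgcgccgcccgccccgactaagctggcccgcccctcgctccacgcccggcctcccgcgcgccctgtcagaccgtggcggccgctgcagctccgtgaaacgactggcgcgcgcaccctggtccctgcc
Tcf7l2, chr19:55741560-55741809, plus strand: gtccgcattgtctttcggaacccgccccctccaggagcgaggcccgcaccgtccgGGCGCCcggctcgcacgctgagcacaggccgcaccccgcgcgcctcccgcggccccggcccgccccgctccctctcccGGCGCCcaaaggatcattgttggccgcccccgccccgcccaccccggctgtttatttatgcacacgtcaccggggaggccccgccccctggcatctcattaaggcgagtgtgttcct
The printed entry of Tcf7l2 held the element at 195 and 117 bases before its start, that of Adgra3 at 202 and that of Gmds at 153. A match describes the letters only, and no binding was measured here.

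Gata6, a zinc-finger transcription factor of heart and endoderm development, had the largest difference. In early control cultures its log2 level was 5.87 and 6.06 on the day 1 arrays and 5.87 on both day 2 arrays. With BMP4 it was 8.56 and 8.78 at day 1 and 8.61 and 9.15 at day 2. In intermediate cultures it was 6.98, 6.54, 6.78 and 7.02 without BMP4 and 6.71, 7.45, 6.23 and 6.64 with it. All 4 early BMP4 arrays were thus above every other array, while intermediate BMP4 and control arrays overlapped and the early controls were the lowest of all. The response was 2.86 ± 0.203 (SE) in early and -0.07 ± 0.203 in intermediate cultures, a difference of 2.93 ± 0.287 or 7.62-fold (95% interval 2.32 to 3.54, limma adjusted p = 0.0002, 4 arrays per population and treatment).

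St8sia4, the enzyme that builds polysialic acid chains on the adhesion molecule NCAM, came next at 2.34 ± 0.232 (limma adjusted p = 0.0002). Early control arrays read 6.54 and 6.30 at day 1 and 6.56 and 6.60 at day 2, and early BMP4 arrays read 9.92, 9.08, 9.18 and 9.37. Intermediate control arrays read 5.78, 5.72, 5.52 and 5.78, and the BMP4 arrays read 6.05, 6.44, 6.21 and 6.28. Here the BMP4 and control arrays were apart in both populations, but the intermediate response of 0.55 did not pass the test (adjusted p = 0.28). Ncam1, which carries the polymer, also rose in early cultures. St8sia2, the other polysialyltransferase, did not pass in either population.

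Gpr22, an orphan G protein-coupled receptor, and Ralyl, an RNA-binding protein of the RALY family, were seen above the 40th percentile on 4 arrays each. Early BMP4 arrays of Gpr22 lay between 6.09 and 7.27 and all 12 others between 4.11 and 4.62. For Ralyl the early BMP4 arrays lay between 6.11 and 6.96 and the others between 4.27 and 4.86. Both genes were near the floor of the scale everywhere except in early cultures with BMP4, and those were the arrays through which they entered the test. A difference was thus given in part by the filter, and the sizes of 2.23 and 2.11 describe a signal against a floor and depend on the added 16. With a pseudocount of 1 they were 3.85 and 3.51, and Gpr22 no longer passed (limma adjusted p = 0.0802).

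Slitrk5, a leucine-rich repeat membrane protein best known from neurons, was read at 5.39, 5.40, 4.79 and 4.34 in early controls and at 7.14, 6.74, 6.21 and 6.18 in early BMP4 cultures. Intermediate arrays stayed between 4.68 and 5.52 in both media. Its difference was 1.86 ± 0.241 (limma adjusted p = 0.00302). Zfp804a, a zinc-finger gene, rose in both populations, by 3.02 ± 0.197 in early and 1.20 ± 0.197 in intermediate cultures. Its controls were near the floor of the scale, between 4.57 and 5.30 in early and between 4.19 and 4.69 in intermediate cultures. The early BMP4 arrays lay between 7.60 and 8.20 and the intermediate ones between 5.42 and 6.05, so that the groups did not overlap (difference 1.82 ± 0.279, limma adjusted p = 0.0112). Slitrk5 was above the filter level on 10 arrays and Zfp804a on 9. The sizes for both genes thus describe in part a signal against a floor and depend on the pseudocount, as for Gpr22 and Ralyl.

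Prdm6, a PR-domain repressor expressed in smooth muscle, started from different levels. Early controls were at 6.11, 6.55, 5.85 and 6.50 and intermediate controls at 6.69, 6.95, 7.65 and 7.82. With BMP4 the early arrays rose to 7.87, 8.38, 8.12 and 8.67, and the intermediate ones read 6.94, 7.74, 7.45 and 7.89. The BMP4 arrays of both populations overlapped and the early controls were the lowest group (difference 1.78 ± 0.317, limma adjusted p = 0.0436). Among 16 fits with 1 array left out, Prdm6 passed in 4, and in the other 12 its difference was 1.61 to 1.87.

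Dcn, the small collagen-binding proteoglycan decorin, was at 6.13 to 6.73 in early controls and 7.77 to 8.38 in early BMP4 cultures, while intermediate arrays lay between 5.98 and 7.11 in either medium. Its difference was 1.62 ± 0.234 (limma adjusted p = 0.00773). Adam23, a member of the disintegrin family without protease activity, was at 6.57 to 6.86 in early controls and 7.68 to 8.13 with BMP4, against 6.84 to 7.24 on all intermediate arrays (difference 1.12 ± 0.169, limma adjusted p = 0.0102). With the mean of all its probe sets in place of the brightest, Adam23 had a difference of 0.65 and did not pass.

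Sparcl1, a secreted matrix glycoprotein of the SPARC family, was the gene with the smallest p and the one of the 16 that passed in both populations with opposite directions. Early controls read 7.92, 7.95, 8.10 and 8.38 and early BMP4 arrays 7.51, 7.07, 7.82 and 7.69. Intermediate controls read 7.91, 7.93, 7.42 and 7.43 and intermediate BMP4 arrays 9.88, 9.31, 9.02 and 9.05. The gene thus fell by 0.56 ± 0.128 in early cultures (limma adjusted p = 0.0138) and rose by 1.65 ± 0.128 in intermediate ones (2.19e-05), with no overlap between BMP4 and control arrays in either population. The difference was -2.21 ± 0.181, or 4.62-fold (95% interval -2.59 to -1.82, limma adjusted p = 4.53e-05). Of the 16 genes it was the only one with a larger response in intermediate than in early cultures.

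Trim47, a ubiquitin ligase of the tripartite-motif family, read higher at day 2 than at day 1. Early controls read 5.81 and 6.17 at day 1 and 7.85 on both day 2 arrays, and intermediate controls read 6.05, 6.01, 7.62 and 7.72. With BMP4 the early arrays were 4.89, 4.55, 5.65 and 5.56, and the intermediate ones 6.70, 5.96, 7.50 and 7.54. On each day the early BMP4 arrays were below the arrays of the other 3 groups (difference -1.83 ± 0.287, limma adjusted p = 0.0129). With a pseudocount of 64 the difference was -1.09 and did not pass.

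Chst15, a sulfotransferase that adds sulfate to chondroitin sulfate chains, read 8.21, 8.40, 9.16 and 9.19 in early controls and 7.73, 6.92, 7.68 and 7.77 with BMP4. Intermediate controls read 8.64, 8.69, 8.73 and 8.83, and their BMP4 arrays were slightly higher at 9.16, 8.85, 8.99 and 8.95. The groups were apart in both populations and in opposite directions, but the intermediate response of 0.27 did not pass (adjusted p = 0.711). The difference was -1.48 ± 0.215 (limma adjusted p = 0.00773).

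Tcf7l2, a transcription factor at the end of the WNT pathway, also had responses of opposite sign. Early cultures went from 8.63, 8.85, 8.53 and 8.49 to 8.27, 7.74, 7.91 and 7.72, and the fall of 0.71 passed the test (limma adjusted p = 0.0058). Intermediate cultures went from 7.51, 7.96, 7.44 and 7.17 to 8.57, 8.35, 7.69 and 7.94, a response of 0.62 that did not (0.102). The difference was -1.33 ± 0.195 (limma adjusted p = 0.00812), and with the mean of all its probe sets it was -0.68 and did not pass.

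Twist2, a basic helix-loop-helix factor of limb and skin mesenchyme, read 9.32, 8.83, 10.06 and 9.78 in early controls and 8.07, 8.0, 8.66 and 8.16 with BMP4. Intermediate arrays lay between 8.83 and 9.65 without BMP4 and between 8.97 and 9.41 with it, so all 4 early BMP4 arrays were below every other array. The difference was -1.24 ± 0.201 (limma adjusted p = 0.018). Twist1, its close relative, had a response of -0.19 in early and -0.31 in intermediate cultures and passed in neither. Prrx1 was at 0.04 and 0.09, and Prrx2 rose by 1.52 in early cultures.

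Adgra3, an adhesion G protein-coupled receptor, was among the brighter genes, at 10.31 to 10.79 in early controls, 9.47 to 9.92 with BMP4 and 10.03 to 10.37 on all intermediate arrays (difference -1.05 ± 0.147, limma adjusted p = 0.00655). With the mean of all its probe sets the difference was -0.58 and did not pass. Gmds, the enzyme that starts the synthesis of GDP-fucose, was at 8.64 to 9.32 in early controls and 7.68 to 8.27 with BMP4, against 8.15 to 8.97 on intermediate arrays. Its difference was -0.94 ± 0.157 (limma adjusted p = 0.0216), and it passed in 6 of 16 fits with 1 array left out. Twist2 passed in 12 of them, and did not without the first intermediate control, intermediate BMP4 or early control array of day 1 or the first intermediate control of day 2, with values of -1.18, -1.22, -1.19 and -1.20. The other 13 genes, leaving Prdm6, Twist2 and Gmds aside, passed in all 16.

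**Figure D1:**
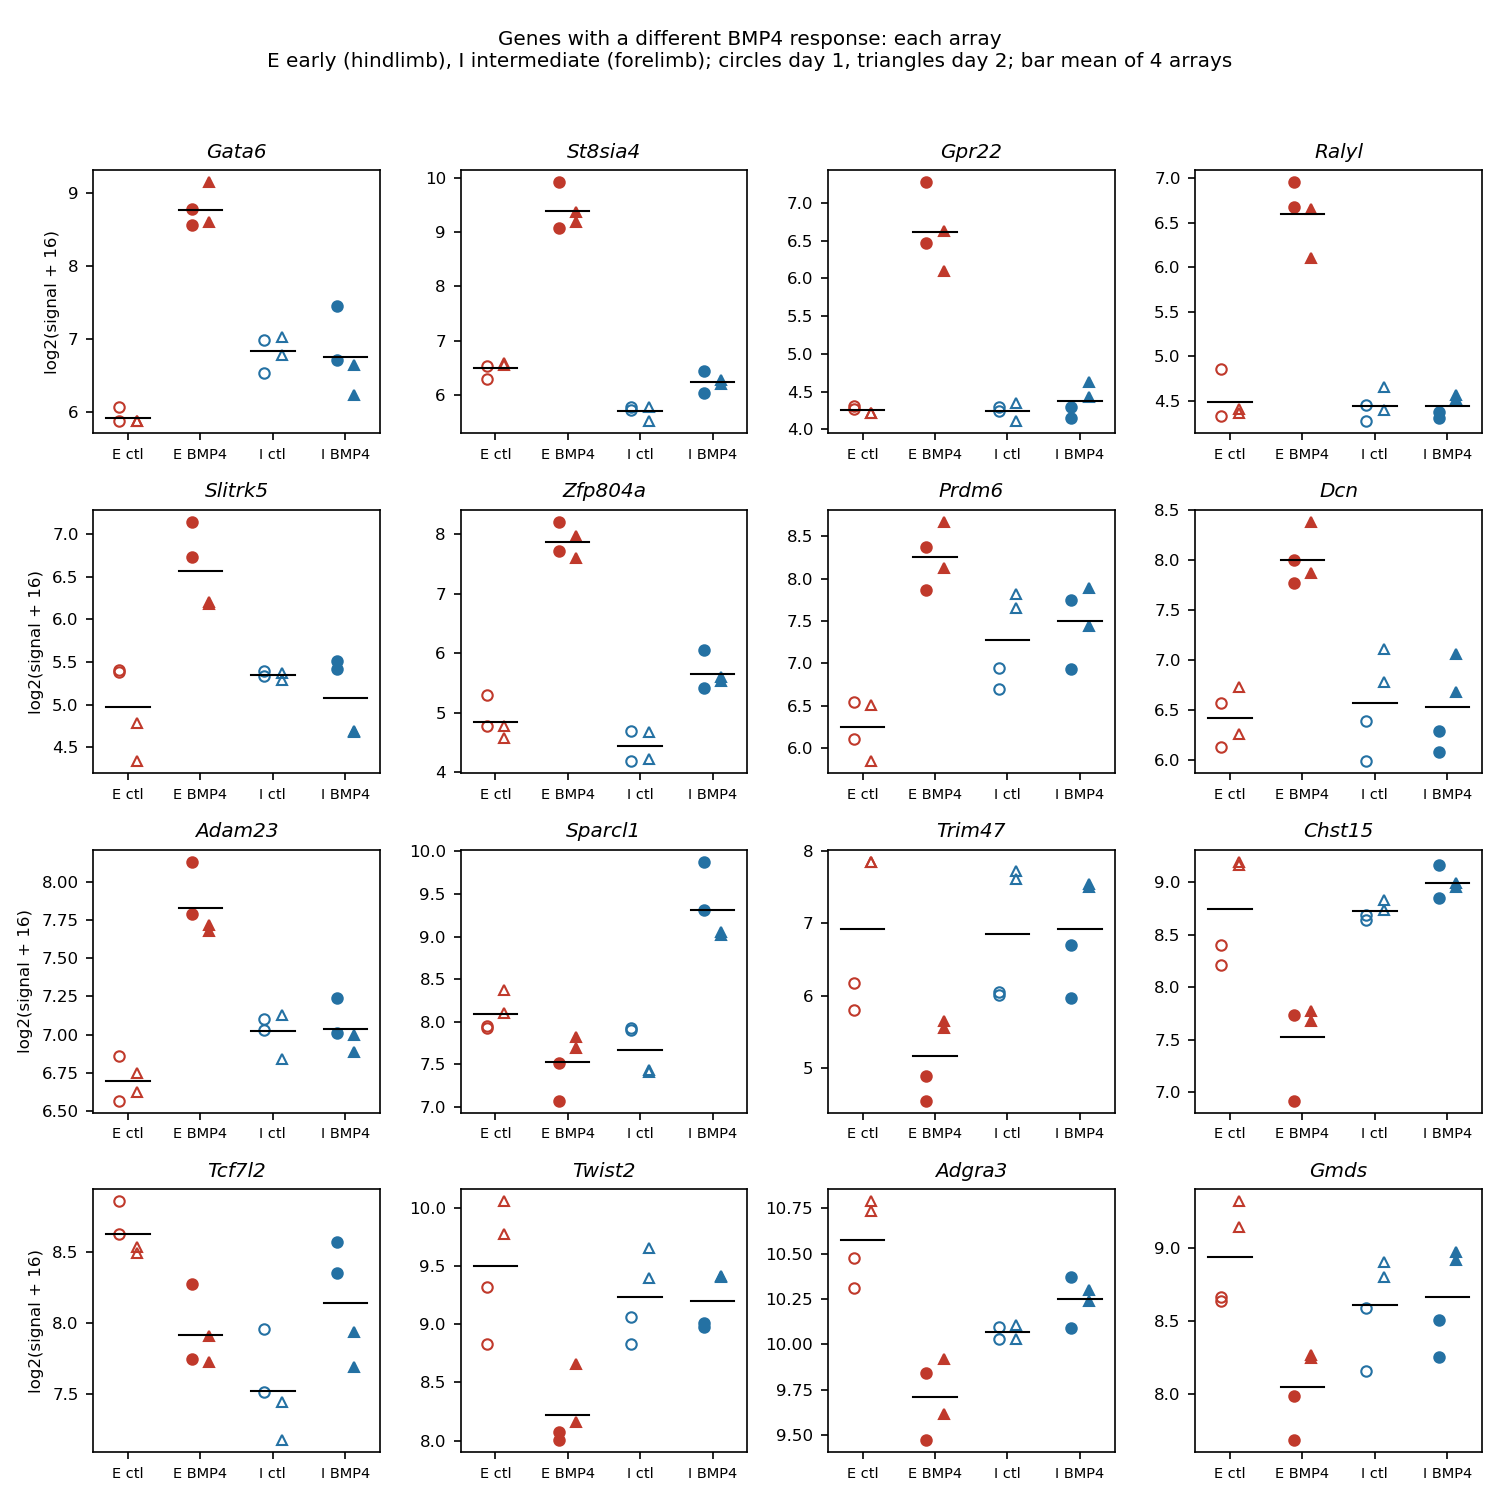
Log2 level (signal + 16) on each of the 16 arrays for the 16 genes whose response differed, in early (E, red) and intermediate (I, blue) cultures, with open symbols for control, filled for BMP4, circles for day 1, triangles for day 2 and a bar at the mean of 4 arrays. The early BMP4 arrays stand apart from the early controls in 16 of 16 genes, and the intermediate ones do so in 4, namely St8sia4, Zfp804a, Sparcl1 and Chst15. Since the genes were picked by the difference on these same arrays, this is partly given by the choice. The share of all genes with groups apart was not counted.

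Across the 16 genes the early response passed the test on its own in 16 and the intermediate response in 2, Sparcl1 and Zfp804a. The difference had the same sign at both days in all 16. These counts are partly given by the choice of genes on the pooled difference, which averages both days of these same arrays. The share of all genes with the same sign at both days was not counted. Tested by day, it passed for 2 genes at day 1 (0.0136%), with St8sia4 at 2.58 and Sparcl1 at -2.32. At day 2 it passed for 3 (0.0205%), with Gata6 at 3.48, Slitrk5 at 2.28 and Sparcl1 at -2.10. The block gave 5 genes (0.0341%) at day 1 and 111 (0.757%) at day 2. A change of the difference from day 1 to day 2 passed for 0 genes (0%) by limma, with the block too, and 395 genes had an unadjusted p under 0.05 for it. Other probe sets that passed the filter on low values were present for 8 of the 16 genes, 11 in all, and 10 of these had the same sign. Those of Adgra3 and Adam23 were near 0, at -0.118 and 0.174, and the one of other sign, for Tcf7l2, was at 0.0149. The remaining ones were further from 0, from -0.539 for Tcf7l2 as the smallest in size to 2.62 for Gata6 as the largest.

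In late cultures (proximal forelimb), fitted after the values above were seen, 27 of 14658 genes passed (0.184%), and of the 16 genes only Sparcl1 and Zfp804a did. Sparcl1 rose there by 1.00 ± 0.12 (limma adjusted p = 0.000396), the direction it had in intermediate cultures. Gata6 was at 1.40 ± 0.293, just short of the threshold (adjusted p = 0.05). Zfp804a rose by 1.22. Prdm6 at 0.83, Ralyl at 0.70, St8sia4 at 0.66 and Slitrk5 at 0.51 lay above 0 as in early cultures without passing, with adjusted p from 0.0923 for Ralyl and St8sia4 to 0.192 for Slitrk5. Gpr22 was at -0.01, Dcn at 0.19 and Adam23 at 0.05. Of the 7 genes with a lower early response, Trim47 was at 0.64, Tcf7l2 at 0.25, Adgra3 at 0.19, Twist2 at 0.05, Chst15 at -0.01 and Gmds at -0.11, and none of these 6 passed.

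Taken over all genes, 1280 passed the test for the early response (8.73%), 678 rising and 602 falling, and 30 for the intermediate response (0.205%), 20 rising and 10 falling. The early split depended on the scaling. With the array medians set equal, the median early response of all genes moved from 0.03 to -0.11, and 364 genes rose and 1267 fell. In intermediate cultures 17 then rose and 14 fell. With quantile normalization 584 rose and 654 fell in early cultures. With the block the counts of the 2 responses were 2181 (14.9%) and 107 (0.73%). The fit uses 1 variance per gene for both populations, so it gives them equal standard errors, with a median of 0.153. Of the 678 genes that rose in early cultures, 586 (86.4%) had a response above 0 in intermediate cultures and 15 (2.21%) rose there, and the median response was 0.772 against 0.244. Of the 602 that fell, 499 (82.9%) were below 0 in intermediate cultures and 8 (1.33%) fell there, with medians of -0.589 and -0.168. Since these genes were picked on the early arrays, a smaller median in the other population is partly given by the choice. Seen from the other side, 15 of the 20 genes that rose in intermediate cultures rose in early ones too (75%), with a median of 1.11 in both, and 8 of the 10 that fell also fell there (80%). The populations share no array.

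Some responses were close in size in both. Cxcl12, a chemokine, fell by 1.38 in early and by 1.41 in intermediate cultures. Kif26b, a kinesin family member, rose by 0.87 and 0.92. Nog, which encodes noggin, rose by 1.81 and 1.56, with a difference of 0.26 whose 95% interval ran from -0.50 to 1.01. Lifr, a cytokine receptor subunit, rose by 1.36 and 0.99. These genes, apart from Nog, were chosen after their values were seen.

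**Figure D2:**
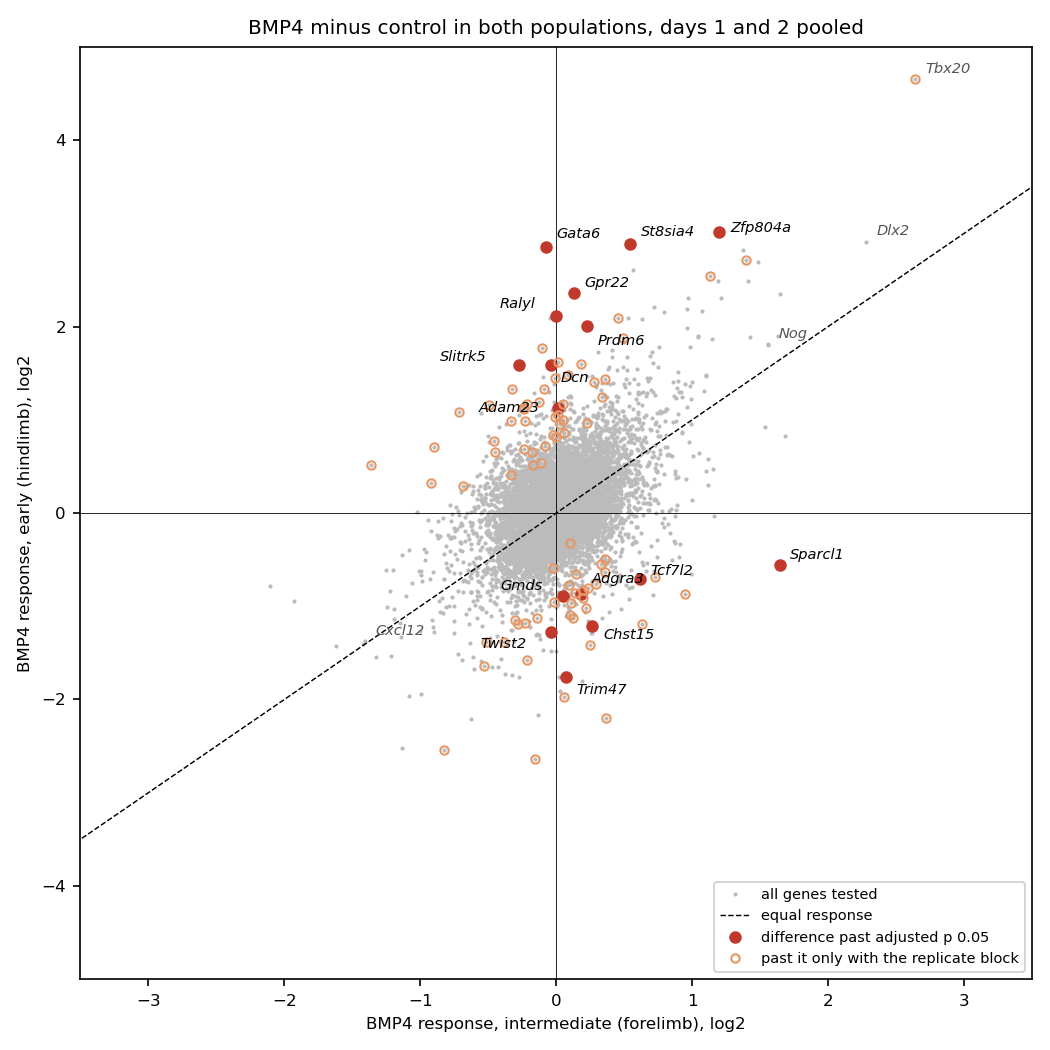
BMP4 response on the log2 scale in early cultures (vertical) against intermediate cultures (horizontal) for all 14658 genes, with the 16 genes that passed as filled circles, those that passed only with the replicate block as open circles and a dashed line where responses are equal. Most of the 16 lie near 0 on the horizontal axis and far from 0 on the vertical one, and Sparcl1 lies alone to the lower right.

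Among 18 ligands, receptors and SMADs tested, none passed for the difference, and the median difference was 0.08 against 0.02 over all genes (with array medians set equal it was -0.01). In early cultures Bmpr2 and Acvr2a, type II receptors, rose by 0.58 and 0.38 (4.63% of all genes rose, and no member did with array medians set equal), and the ligands Bmp2 and Bmp7 fell by 1.59 and 1.58 (4.11% fell). In intermediate cultures no member passed (0.136% of all genes rose and 0.0682% fell), with Bmp2 at -0.55 and Bmp7 at -0.69.

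Of 22 BMP targets and feedback inhibitors tested, 8 rose and 1 fell in early cultures (4.63% and 4.11% of all genes), and 2 rose in intermediate ones (0.136%), Nog and Dlx2. Without either intermediate control of day 1 or the second intermediate BMP4 array of day 1 neither passed there. The median response was 0.61 in early and 0.25 in intermediate cultures. The median difference was 0.28, with 15 members above 0 (7777 of all 14658 genes were). None passed for the difference. Msx2, a homeobox repressor that marks BMP-exposed limb mesenchyme, had the largest, 1.41 ± 0.44 (limma adjusted p = 0.312, and 0.0298 with the replicate block). Early arrays of Msx2 went from 6.83, 7.99, 7.05 and 7.51 to 9.98, 10.47, 9.31 and 9.78, and intermediate arrays from 8.23, 8.52, 7.72 and 8.78 to 9.44, 10.38, 8.61 and 9.32. In every group and on each day the second array was the higher one. Another Msx2 probe set past the filter gave a smaller difference, of 0.509. Msx1, a relative of Msx2, rose by 1.44 in early cultures and was at 0.51 in intermediate ones. Dlx5 had the smallest p of the list for the difference and went the other way, at -1.17 ± 0.331 (limma adjusted p = 0.227). It was at -0.62 in early and 0.55 in intermediate cultures and passed in neither.

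Dlx2, a distal-less homeobox gene, rose by 2.91 and 2.28. The inhibitory SMADs Smad6 and Smad7 rose by 1.28 and 0.88 in early cultures, and were at 0.60 and 0.29 in intermediate ones without passing. Bambi, a decoy receptor, rose by 1.12 in early cultures and was at 0.81 in the other. Sostdc1, a secreted BMP antagonist, fell by 1.25 in early cultures and was at -0.33 in intermediate ones. Id1, a classical early target that encodes an inhibitor of basic helix-loop-helix factors, was near 0 in both, at -0.16 ± 0.166 and 0.01 ± 0.166, and so was Id3, at 0.16 and 0.00. Levels of Id1 were between 9.42 and 10.76 on all 16 arrays.

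T-box and GATA factors, which pattern the anterior and posterior limb and the heart, had the highest median early response of all lists. Of 16 tested, 10 rose and 3 fell in early cultures (4.63% and 4.11% of all genes). In intermediate ones 2 rose, Tbx20 and Isl1 (0.136% of all genes). The median response was 1.11 against 0.50 and the median difference 0.70. Without the second intermediate BMP4 array of day 1 the median difference was 0.90 and no member rose in intermediate cultures. Gata6 alone passed for the difference (0.109% of all genes), and with the block Tbx20, Zfpm2 and Tbx15 passed too (0.634%). Tbx20, a T-box factor of the developing heart, had the largest early response of the list. Its early control arrays read 5.19, 6.01, 5.21 and 6.21, and the 4 early BMP4 arrays lay between 9.85 and 10.87, a response of 4.65 ± 0.356. Its intermediate arrays went from 4.97, 5.81, 4.97 and 6.06 to 7.80, 8.83, 7.33 and 8.40, a response of 2.64 ± 0.356. The controls of both populations overlapped and all 4 early BMP4 arrays were above all intermediate ones. Again the second array of each pair was higher, and the difference of 2.02 ± 0.503 had an adjusted p of 0.169 by limma, and of 9.33e-05 with the replicate block.

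Tbx2 and Tbx3, T-box repressors at the limb borders, rose in early cultures by 2.49 and 2.17 and were at 1.19 and 1.07 in intermediate ones. Their differences, 1.29 ± 0.441 and 1.10 ± 0.372, did not pass (limma adjusted p of 0.384 and 0.377). The second intermediate BMP4 array of day 1 read 7.92 for Tbx2 and 7.91 for Tbx3, against 6.44 and 7.06 on the first. Gata3 rose by 2.19 in early cultures and was at 0.96. Zfpm2, a cofactor of GATA proteins, rose by 1.60 in early cultures and was at 0.18 (difference 1.42, adjusted p = 0.252 by limma, and 0.00566 with the replicate block). Hand1 rose by 1.90 in early cultures and was at 1.04.

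Against the list's direction, Tbx18, Tbx15 and Tbx1 fell in early cultures, by 1.65, 1.15 and 1.08, and were at -0.48, -0.30 and 0.13 in intermediate ones. Tbx15 and Tbx18 are known from proximal limb mesenchyme, but the proximal limb list was mixed. Of its 15 genes tested, Shox2, Tbx15 and Tbx18 fell in early cultures (4.11% of all genes fell). Meis2 and Meis3 rose there, by 1.145 and 1.26 (4.63% of all genes rose). With array medians set equal 2 members rose and 5 fell. No member passed in intermediate cultures, and the median difference was 0.06. Isl1, a homeobox gene of the hindlimb field, rose in both, by 0.92 in early and 1.54 in intermediate cultures. Its difference was -0.62 on this probe set and 0.20 on another that passed the filter. Pitx1 was at -0.21 and -0.16 and Tbx4 at 0.04 and 0.11, and neither passed in either population.

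**Figure D3:**
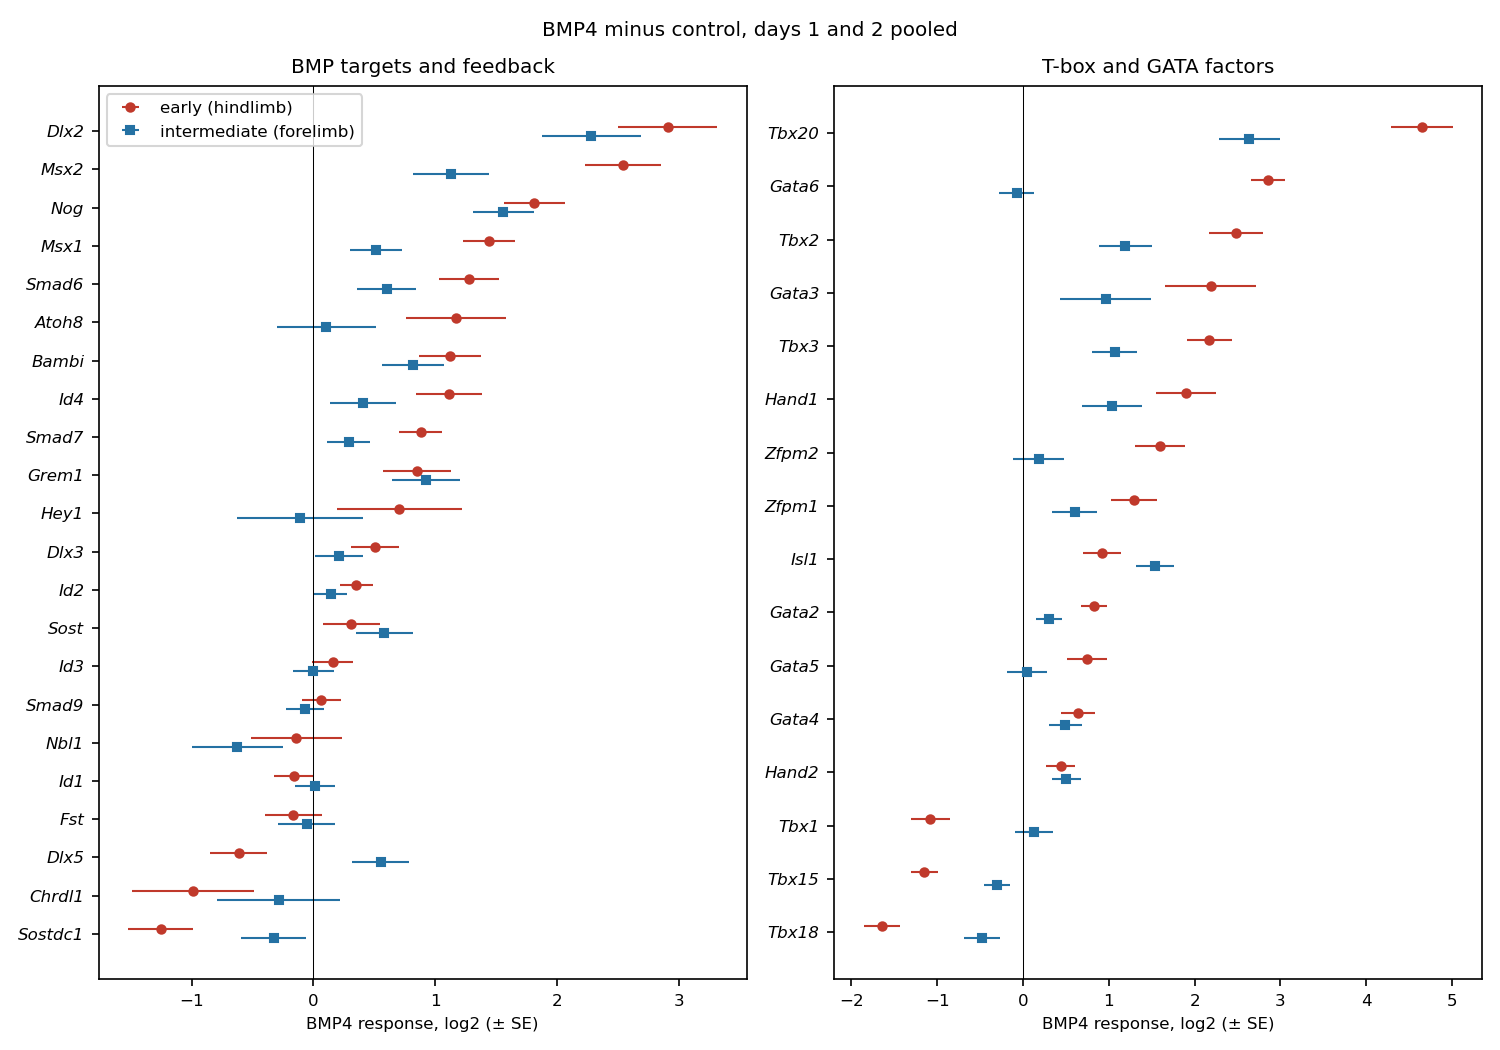
BMP4 response (log2, point ± SE) of each tested BMP target or feedback gene (left, 22 genes) and T-box or GATA factor (right, 16 genes) in early (red circles) and intermediate (blue squares) cultures. Most genes that rose lie further right in early cultures, with Gata6 at 2.86 against -0.07 the widest gap. Nog and Dlx2 lie close together, and Isl1 has the larger intermediate value on the probe set plotted.

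Cartilage matrix genes leaned the other way. Of 26 tested, 7 fell and 1 rose in early cultures (4.11% and 4.63% of all genes) and none passed in intermediate ones. With array medians set equal 13 fell and none rose, and with quantile normalization 7 fell and none rose. The median response was -0.79 in early and 0.03 in intermediate cultures. The difference was below 0 for 21 genes (6881 of all 14658 genes were), with a median of -0.83. None passed for the difference, 11 had an unadjusted p under 0.05 on the lower side (589 of 14658 genes did), and with the replicate block Matn4 and Cnmd passed. The median difference was -0.26 at day 1 and -1.44 at day 2, and no gene passed the test of the change between days. With 1 array left out the median stayed between -1.02 and -0.60, but the count of 7 that fell in early cultures depended on single arrays. It was 11 without the first early BMP4 array of day 1, 3 without the second early BMP4 array of day 2, and 2 without either early control of day 2. It was 4 without the second early BMP4 array of day 1, the first early control of day 1, the second intermediate control of day 1 or either intermediate control of day 2.

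Matn4, a matrilin of the cartilage matrix, had the most negative difference of all genes, -2.57 ± 0.644 (limma adjusted p = 0.173, and 0.00666 with the replicate block). Early controls read 9.57 and 8.77 at day 1 and 11.20 and 11.21 at day 2, and early BMP4 arrays 8.18, 6.21, 9.74 and 7.82. Intermediate controls read 9.85, 9.30, 11.28 and 10.76 and their BMP4 arrays 10.69, 8.93, 11.73 and 11.30. On each day the early BMP4 arrays lay below the early controls, and the second of them was about 2 units below the first. Cnmd, which encodes the cartilage glycoprotein chondromodulin, had the same shape. It read 8.44, 8.03, 9.93 and 9.79 in early controls and 6.85, 5.54, 7.62 and 5.60 with BMP4, and its difference was -2.48 ± 0.604 (limma adjusted p = 0.157, and 0.0269 with the replicate block).

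The main cartilage collagen, Col2a1, read 11.56, 11.46, 11.89 and 11.99 in early controls and 11.30, 10.05, 11.63 and 10.26 with BMP4, and intermediate arrays lay between 11.48 and 12.17. Its fall of 0.91 ± 0.261 in early cultures passed (limma adjusted p = 0.0412), and the difference of -0.96 ± 0.37 did not (0.459). Acan, the large proteoglycan aggrecan, was at -0.88 in early and 0.71 in intermediate cultures, with a difference of -1.59 ± 0.436 (limma adjusted p = 0.206). The collagens Col11a1 and Col11a2 and the matrilin Matn1 fell in early cultures by 1.16, 1.01 and 2.17. Fmod, the small proteoglycan fibromodulin, was the member that rose, by 1.30 in early cultures, and it was at -0.05 in intermediate ones.

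Of the 13 chondrogenic transcription factors 3 fell in early cultures (4.11% of all genes fell), and 4 with array medians set equal. In intermediate cultures no member passed, and the median difference was -0.42. None fell without the second early BMP4 array of day 2, 1 without the first early control of day 1, and 2 without the second early BMP4 array of day 1 or either early control of day 2. Sox6 fell by 1.71, Foxc2 by 1.51 and Foxc1 by 1.32. Sox9, the master factor of the cartilage lineage, was at 9.66, 9.51, 9.68 and 9.91 in early controls and at 9.66, 8.06, 9.20 and 8.44 with BMP4. The second BMP4 array of each day was the low one, and the difference of -1.08 ± 0.385 did not pass (limma adjusted p = 0.413). Other Sox9 probe sets past the filter gave -0.21 and -1.05. Among 10 cartilage maturation and bone genes, Runx3 and Ptch1 fell in early cultures by 1.81 and 1.19 (4.11% of all genes fell). With array medians set equal 4 members fell. The median difference was -0.83. None fell without the first early control of day 1, either early control of day 2 or the second early BMP4 array of day 2, and 4 fell without the second early control of day 1. Ptch1, the hedgehog receptor, which is itself a hedgehog target, was at 0.63 in intermediate cultures (difference -1.82 ± 0.425, adjusted p = 0.128 by limma, and 0.0409 with the replicate block). Other Ptch1 probe sets past the filter gave smaller differences, of -0.09 and -0.87.

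Other cell types were looked for beside this shift. The 22 skeletal muscle markers tested, of 24 listed, had a median difference of -0.84, and none passed for either response or for the difference. The median was -0.44 without the second early BMP4 array of day 2 and -1.11 without the second early control of day 2. Their summed signal, as log2, ran from 11.84 to 12.85 in early controls, 11.55 to 13.12 in early BMP4, 11.21 to 12.34 in intermediate controls and 12 to 12.99 in intermediate BMP4 cultures, so the groups overlapped. In bulk cultures fewer cells of a type and less RNA per cell cannot be told apart. Whether muscle cells have a part in the cartilage values was not tested.

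**Figure D4:**
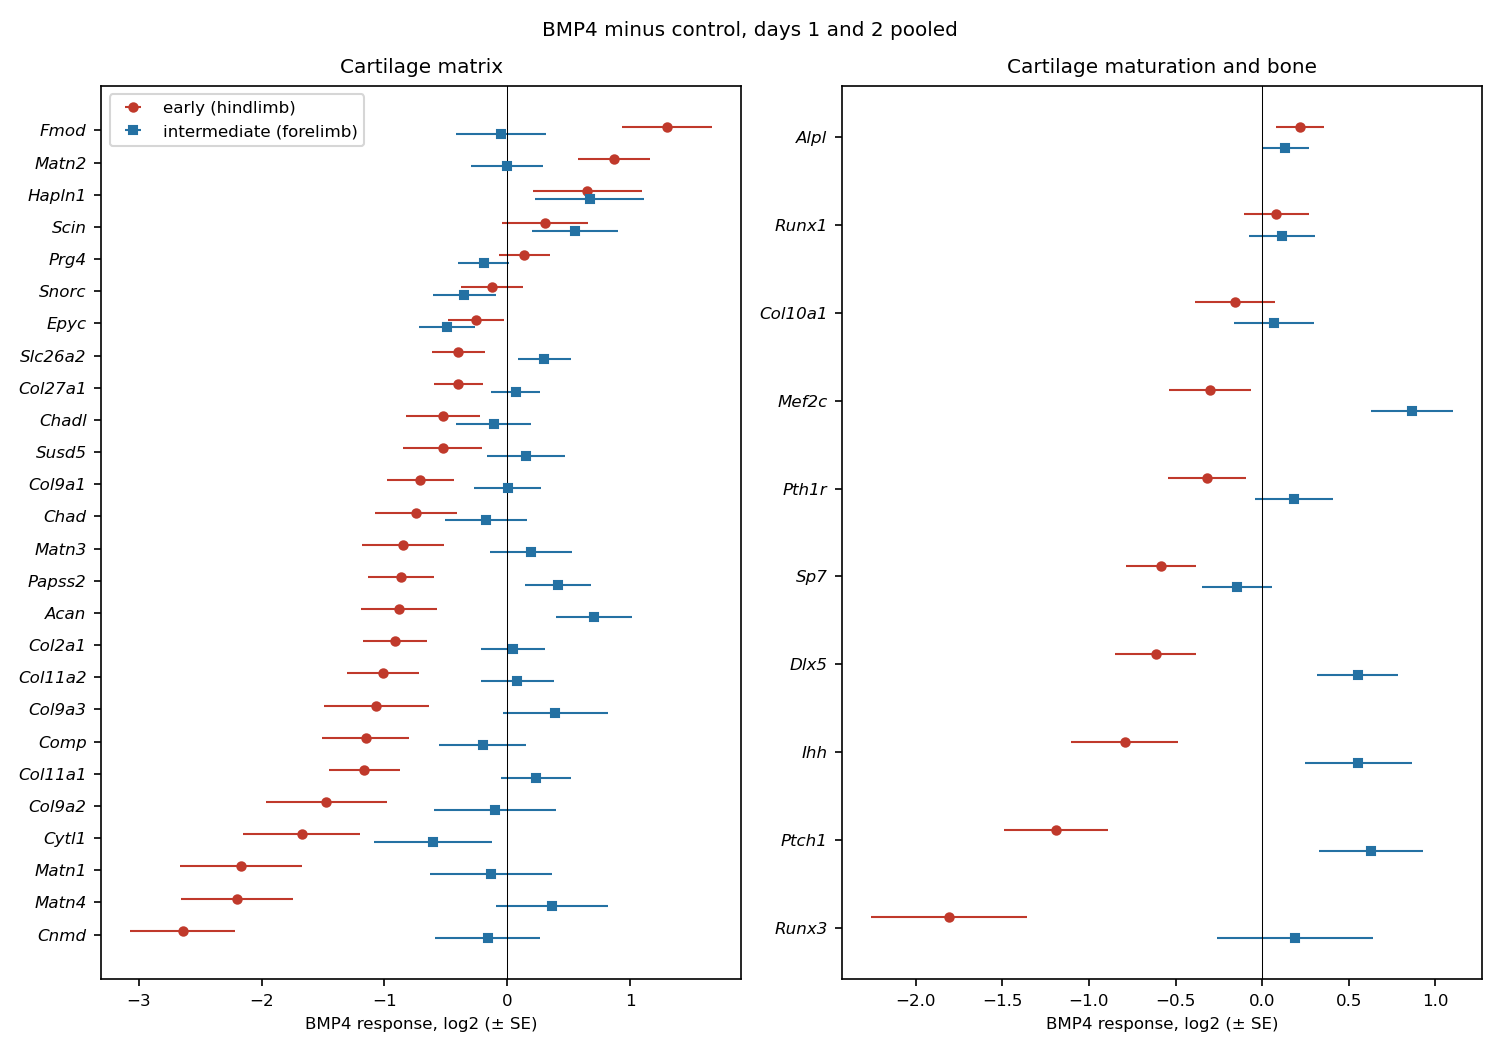
BMP4 response (log2, point ± SE) of 26 cartilage matrix genes (left) and 10 cartilage maturation and bone genes (right) in early (red circles) and intermediate (blue squares) cultures. Most early points lie left of 0, down to -2.64 for Cnmd, while the intermediate points scatter around 0.

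Connective tissue genes included Dcn, described above, as the 1 of 20 that passed for the difference (0.109% of all genes did). In early cultures Col1a1, Col14a1, Postn and Dcn rose and Tnc fell (4.63% and 4.11% of all genes), and no member passed in intermediate ones. Tnc, the matrix protein tenascin-C, had a difference of -0.99 (adjusted p = 0.117 by limma, and 0.0146 with the replicate block). Among 11 genes of polysialic acid, adhesion and condensation, St8sia4 passed for the difference (0.109% of all genes). Cdh2, the N-cadherin of condensing mesenchyme, rose by 1.00 in early cultures and was at 0.05 in intermediate ones (difference 0.95 ± 0.2, adjusted p = 0.0967 by limma, and 0.037 with the replicate block).

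Smooth muscle markers were above 0 for the difference in 14 of 15 (7777 of all 14658 genes were), with a median of 0.23, and none passed. With 1 array left out the median ran from 0.11, without the second early BMP4 array of day 1, to 0.42, without the first. Actg2 and Myocd, the smooth muscle gamma-actin and the coactivator myocardin, rose in early cultures (4.63% of all genes did). The count of markers that rose ran from 0 to 5 with 1 array left out. The list's summed signal ran from 14.07 to 14.64 in early controls and 14.45 to 14.83 with BMP4, and from 14.33 to 14.60 and 14.14 to 14.82 in intermediate cultures, with overlap in both.

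Cell cycle genes were below 0 for the difference in 22 of 25 (6881 of all 14658 genes were), with a median of -0.25. In early cultures 9 fell, among them Ccnd1, Top2a and Bub1, and none rose (4.11% and 4.63% of all genes), and in intermediate cultures none passed. With array medians set equal 14 fell, and with quantile normalization 7 fell and 1 rose. The early median response was -0.34 and the intermediate one -0.10. Without the second early BMP4 array of day 2 only 2 members fell, and the median difference was -0.15. Counts of 4, 2 and 3 were found without the first early control of day 1 and the first and the second early control of day 2. Bcl2, a survival gene, fell by 1.98 in early cultures and was at 0.05 in intermediate ones. Its difference of -2.03 ± 0.431 had an adjusted p of 0.0967 by limma, and of 0.00376 with the replicate block. Of 13 apoptosis and p53 genes tested, Bcl2 alone fell and none rose in early cultures (4.11% and 4.63% of all genes). The median difference of that list was 0.09.

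Among patterning pathways the lists were mixed. Of 25 WNT genes 6 rose and 3 fell in early cultures (4.63% and 4.11% of all genes). With array medians set equal 3 rose and 7 fell, and with quantile normalization 4 rose and 4 fell, so the list has no settled direction. Dkk1, a secreted WNT inhibitor, rose in both, by 2.69 and 1.48. Of 22 distal limb and FGF response genes, 2 rose and 5 fell in early cultures (4.63% and 4.11% of all genes). Spry1, an FGF feedback inhibitor, fell in both populations, by 0.54 and 0.81. Etv5, an FGF-induced factor, fell by 1.18 in early cultures and was at -0.23 (difference -0.95, adjusted p = 0.153 by limma, and 0.0105 with the replicate block). Rarb, a retinoic acid receptor that is also a retinoic acid target, was at 0.71 in early and -0.90 in intermediate cultures, with a difference of 1.61 ± 0.351 (adjusted p = 0.107 by limma, and 0.038 with the replicate block). None of 14 HoxA and HoxD genes passed for either response or for the difference.

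Macrophage and leukocyte markers were higher with BMP4. Of 13, 11 rose in early cultures (4.63% of all genes did) and 2 in intermediate ones, Csf1r and Tyrobp (0.136%). The median responses were 0.93 and 0.62. Csf1r, the growth factor receptor of macrophages, rose by 0.83 and 0.81. The summed signal of the list was 9.63 to 9.95 in early controls and 10.56 to 11.01 with BMP4, and 9.68 to 10.15 and 10.69 to 10.97 in intermediate cultures, so BMP4 and control arrays were apart in both. For the response difference 12 of 13 were above 0 (7777 of all 14658 genes were), the median was 0.24 and none passed. The median was 0.12 without the first intermediate BMP4 array of day 1. The 2 intermediate calls were both lost without either intermediate control of day 1 or the second intermediate BMP4 array of day 1. The part of these cells in the responses was not tested.

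**Figure D5:**
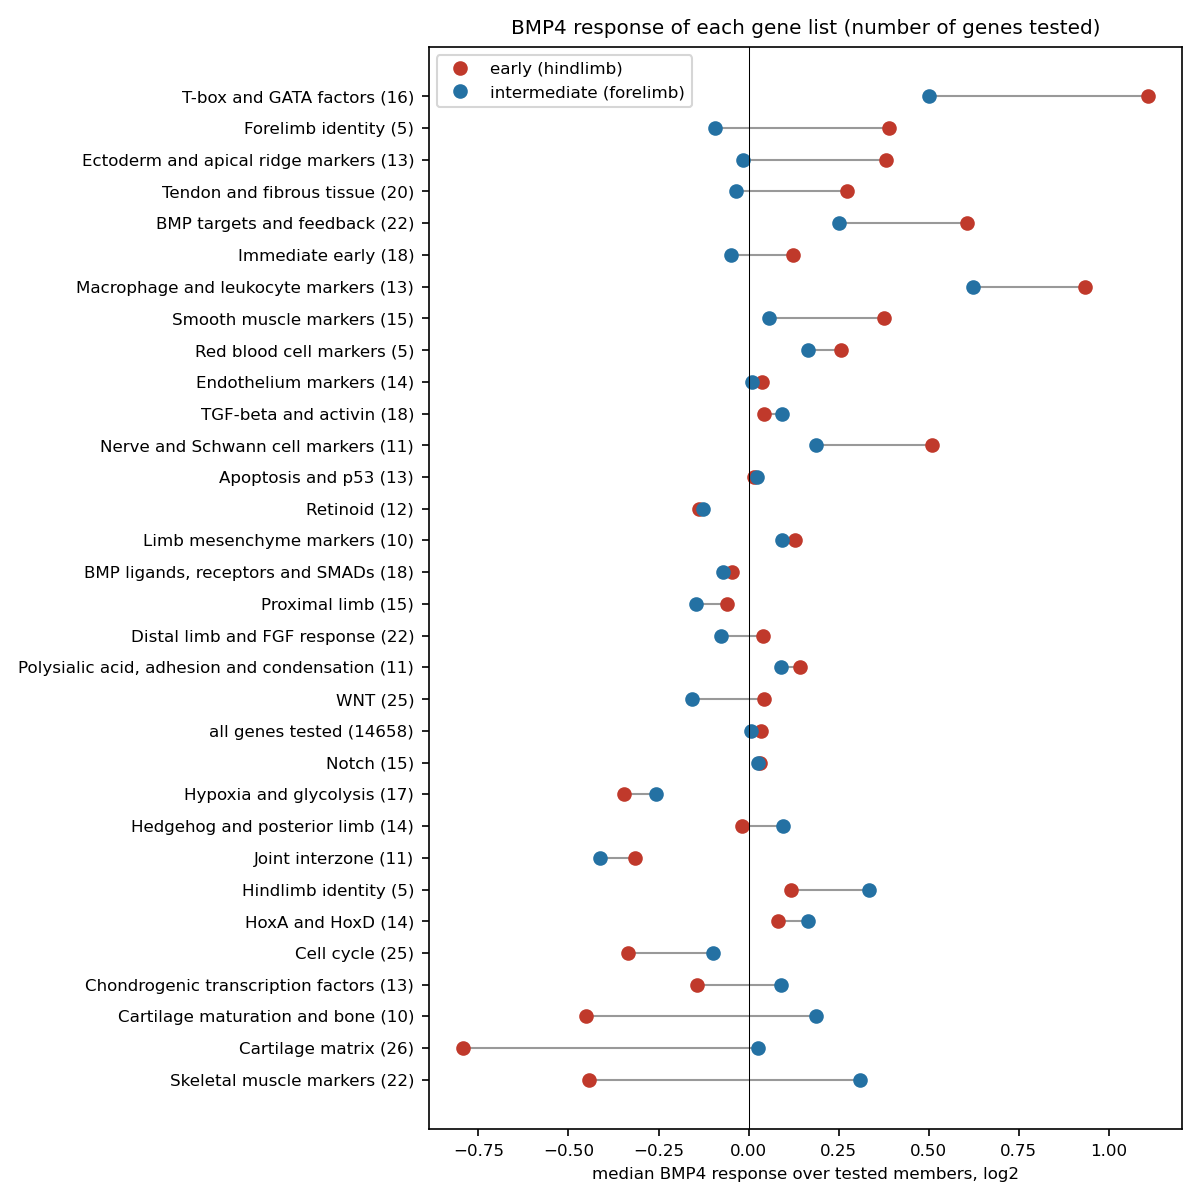
Median BMP4 response (log2) over the tested members of each of the 31 gene lists and over all genes, in early (red) and intermediate (blue) cultures, ordered by the median difference, with the number of genes in brackets. T-box and GATA factors stand at the top with 1.11 against 0.50, and cartilage matrix and skeletal muscle markers at the bottom with -0.79 against 0.03 and -0.44 against 0.31.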

How the data were processed

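RNA of 16 cultures was measured on Affymetrix mouse arrays with 45101 probe sets. The deposited values are linear signal intensity made with MAS5, per the submitters' processing notes. Its settings are not stated in any source used. Every trimmed mean was 150, so the authors' deposited intensity is scaled to a common level. The number of arrays limits the precision.

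Values were used as log2(signal + 16). Probe sets above the array's 40th percentile on at least 2 of the 16 arrays were kept, and a gene with 1 symbol was represented by its brightest probe set, leaving 14658 genes. Of 45101 probe sets 34945 had 1 symbol, 932 several and 9160 none. limma 3.58.1 in R 4.3.3 was fitted with a mean for each population and day and a BMP4 effect in each population (10 residual degrees of freedom), with a variance trend, two-sided, adjusted over all genes at 0.05. Single days came from a fit of 8 separate group means (8 residual degrees of freedom). The procedure was tested on simulated data. Where nothing states separate cultures, p-values measure the spread between these samples.

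The same replicate number, within a day, gave deviations that correlated at 0.156 to 0.36 in all 12 group pairs. Across days the range was 0.0838 to 0.359 in 16 pairs. As these ranges largely overlap, they cannot tell pairing within a day from an effect of the number across days. The fit with the number as a block within a day thus rests on an assumption and is given beside the main fit. The labels do not say what a number marks.

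Named were the genes past the threshold (at most 15 each way, filled to 8 by smallest p), up to 3 members of each of 31 gene lists by smallest p, and 13 set genes; other names were chosen after their values were seen. Of 485 listed genes 427 were tested, 30 were below the filter and 28 were not matched and not analysed here. The comparison, lists and members were chosen with earlier results of these data known. Lists share some genes and were only counted, not tested. Alternatives covered the pseudocount, filter, scaling, probe set choice, arrays fitted, weights, block and each array left out.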

Additional observations from a re-analysis of the deposited data

Results flagged for a closer look

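Each result below is here because the BMP4 response differed between early (hindlimb) and intermediate (forelimb) cultures by a test of that difference itself (limma, adjusted p under 0.05). With both days pooled, the early minus intermediate values on the log2 scale were 2.93 for Gata6, 2.34 for St8sia4, 2.23 for Gpr22, 2.11 for Ralyl, 1.86 for Slitrk5, 1.82 for Zfp804a, 1.78 for Prdm6, 1.62 for Dcn and 1.12 for Adam23. On the lower side they were -2.21 for Sparcl1, -1.83 for Trim47, -1.48 for Chst15, -1.33 for Tcf7l2, -1.24 for Twist2, -1.05 for Adgra3 and -0.94 for Gmds. At day 1 alone St8sia4 was at 2.58 and Sparcl1 at -2.32. At day 2 alone Gata6 was at 3.48, Slitrk5 at 2.28 and Sparcl1 at -2.10. Gpr22 and Ralyl entered the test through the early BMP4 arrays alone.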

How the results depend on the processing

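None of the 16 genes that passed for the difference changed direction under the alternatives tried. Some other named genes, none of which passed for the difference, and some list medians did. The number of genes whose response differed, 16, became 65 with all 30 arrays in the fit, 27 with array quality weights and 93 with the replicate block, and ranged from 13 to 68 with 1 array left out. The 68 came without the second intermediate BMP4 array of day 1, whose removal left 2 genes for the intermediate response. The early count of 1280 became 2181 with the replicate block and ranged from 652 to 1426, with 652 without the first early control of day 1, 725 and 737 without the first and the second early control of day 2, and 655 without the second early BMP4 array of day 2. The intermediate count of 30 became 19 with the mean of all probe sets, 77 with 30 arrays, 49 with weights and 107 with the replicate block, and ranged from 2 to 37. It was 2 and 3 without the first and the second intermediate control of day 1, 19 without the first intermediate BMP4 array of day 1, and 16 and 14 without the first control and the second BMP4 array of day 2. At day 1 the count of 2 became 1 with a pseudocount of 1, 4 with 64, 5 without the filter, 1 with the mean of probe sets, 4 with 30 arrays, 5 without the variance trend and 5 with the replicate block (range 0 to 7 with 1 array left out). At day 2 the count of 3 became 5 with a pseudocount of 64, 41 with 30 arrays, 5 with weights and 111 with the replicate block (range 0 to 6). The cause of these changes was not tested, other than that leaving out an array leaves fewer samples. The change between days stayed at 0.

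Among single genes, Gpr22 and Zfp804a no longer passed with a pseudocount of 1. Zfp804a and Adam23 did not with 30 arrays. Setting array medians equal moved the median difference of all genes from 0.02 to -0.07, and turned the sign of the median for the BMP ligands, receptors and SMADs from 0.08 to -0.01 and for WNT genes from 0.04 to -0.05. Quantile normalization turned that of hindlimb identity from -0.08 to 0.01. With 4 arrays a side and a median standard error of 0.216 for the difference, small differences could not be resolved.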
